A study of Mus musculus with 7 samples.

Results

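The genes described here are the D-type cyclins (Ccnd1, Ccnd2, Ccnd3), their kinase Cdk6, the pocket proteins (Rb1, Rbl1, Rbl2) and the transcription factor genes Myc and Mycn. They were taken by symbol from the probe table of an Illumina array study of the mouse incisor. Of 10 genes chosen, 9 had at least 1 probe, 16 probes in all among 25697, and the kinase gene Cdk4 was not analysed here. The tissue was the labial cervical loop, the epithelial pocket at the base of the incisor that holds the stem cells of the enamel organ. The 4 mutant samples carried K14CreER with the floxed alleles of Yap and Taz (K14CreER;Yap/Tazf/f), and the 3 control samples carried the floxed alleles alone (Yap/Tazf/f). K14CreER is a tamoxifen-activated Cre recombinase under the keratin 14 promoter, so recombination is directed to epithelium and not to any mesenchyme left on the loop. Both genotypes were given tamoxifen (5 mg) at 8 weeks of age, on 2 days in a row, and tissue was taken 48 hours after the last dose. No control carried the Cre, so an effect of active Cre and one of losing both genes cannot be told apart.

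D-type cyclins are the regulatory subunits through which growth signals activate the kinases Cdk4 and Cdk6. These kinases phosphorylate the pocket proteins, which otherwise hold E2F transcription factors in check at the promoters of S phase genes. Myc and Mycn encode related basic helix-loop-helix proteins that pair with Max, bind the E-box and drive genes of growth and ribosome production. In the incisor, the transit-amplifying cells next to the stem cell region of the cervical loop are the main dividing epithelial cells.

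Promoter windows of these genes were searched for both kinds of site, because pocket proteins act at E2F sites and Myc at E-boxes. A window runs from 250 bases before to 50 bases after an annotated gene start (RefSeq, GRCm38.p6), and 6 of the 10 genes had one, 7 windows in all. The E2F octamers searched on both strands were TTTCCCGC, TTTGGCGC, TTTCGCGC and TTTGCCGC, and the E-box was CACGTG, which reads the same on both strands. At least 1 E2F octamer lay in 2.26% of all 32851 windows, and in 8 of 18 windows of the E2F target genes described below. It lay in the windows of Rbl1 and Mycn. Mycn held 3 matches, of which 2 overlap on opposite strands. The E-box lay in 7.15% of all windows, and in those of Cdk4, with 4 matches, and Cdk6, with 1. The 3 windows of measured genes that hold a match are shown 5′ to 3′ on the strand of the gene, with the matches in capitals. The match of Rbl1 begins 18 bases before the annotated start, and those of Mycn begin 183, 179 and 168 bases before it. A match is a string of letters and does not show that a factor binds there.
Rbl1, chr2:157204485-157204784, minus strand: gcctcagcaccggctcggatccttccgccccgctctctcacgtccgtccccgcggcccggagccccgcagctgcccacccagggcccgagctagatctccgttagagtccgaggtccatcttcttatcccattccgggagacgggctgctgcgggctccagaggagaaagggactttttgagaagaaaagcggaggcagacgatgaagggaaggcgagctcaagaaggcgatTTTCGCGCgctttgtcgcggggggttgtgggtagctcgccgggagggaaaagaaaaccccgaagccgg
Mycn, chr12:12941787-12942086, minus strand: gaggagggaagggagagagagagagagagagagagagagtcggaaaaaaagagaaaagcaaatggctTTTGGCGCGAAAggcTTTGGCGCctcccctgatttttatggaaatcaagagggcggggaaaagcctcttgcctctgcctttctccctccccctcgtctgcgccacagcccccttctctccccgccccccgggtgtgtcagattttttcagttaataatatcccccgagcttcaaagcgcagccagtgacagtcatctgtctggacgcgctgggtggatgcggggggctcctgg
Cdk6, chr5:3343643-3343942, plus strand: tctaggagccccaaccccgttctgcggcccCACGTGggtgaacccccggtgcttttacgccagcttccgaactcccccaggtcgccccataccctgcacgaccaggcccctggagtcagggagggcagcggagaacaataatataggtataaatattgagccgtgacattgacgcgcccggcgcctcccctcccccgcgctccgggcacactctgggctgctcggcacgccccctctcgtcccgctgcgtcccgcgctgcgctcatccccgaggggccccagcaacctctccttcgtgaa

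Each sample gave 1 array, and the arrays lay on 2 chips, with 2 mutant and 2 control arrays on the first chip and 2 mutant arrays and 1 control array on the second. Between 13767 and 14752 probes were detected per array, at median intensities of 80.8 to 86.2. A probe was called detected where its deposited p-value against the negative control beads was under 0.05. Levels are background-corrected and quantile-normalised log2 intensities, and differences are mutant minus control from a limma fit with the chip as a term. The labels do not say whether each sample is a different animal, so the p-values cover the spread between these 7 samples alone, which may be technical. The targeted gene Yap1 measured 6.64 ± 0.25 in mutant arrays (SD, n = 4) and 7.27 ± 0.10 in control arrays (SD, n = 3), and fell by 0.68 on the log2 scale (limma adjusted p = 0.0443). It was lower under all 21 alternative settings, with differences of -0.77 to -0.37, but passed the threshold in only 5 of them (limma adjusted p of 0.0098 to 0.781), and of the 7 fits with 1 array left out it passed only without mutant replicate 4. Wwtr1, the gene of TAZ, measured 4.61 ± 0.26 in mutant arrays (SD, n = 4) and 4.75 ± 0.20 in control arrays (SD, n = 3), and did not pass (limma adjusted p = 0.819). The epithelial markers Krt14, Krt5, Krt15, Cdh1 and Trp63 were each detected on all 7 arrays, so the labelled tissue shows its defining markers.

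All 16 probes could be tested, and 15 of them were detected on all 7 arrays. The exception was the second Myc probe, detected on 5. None of the 16 probes changed between the genotypes at an adjusted p under 0.05, and 0 had an unadjusted p under 0.05. The unadjusted count was 2 under median scaling and 4 under median scaling with no background correction, with 11 positive differences in each. It was also 2 with no detection filter, with array weights and on the series matrix values, with 8, 8 and 7 positive differences. The remaining settings gave 0 or 1. The adjusted p-values ran from 0.622 to 0.992. Over all 14666 tested probes, 9 passed the adjusted threshold (0.0614%), 5 of them higher (0.0341%) and 4 lower (0.0273%) in the mutant arrays, and 8.00% had an unadjusted p under 0.05. Of the 16 differences, 8 were positive and 8 negative, with a median of 0.00034 against 0.00025 over all tested probes. The differences lay between -0.24 and 0.25 on the log2 scale. Every 95% interval held 0, and 14 of the 16 lay within 0.5 of 0. The outermost bounds were -0.52 and 0.51, which are folds of 0.696 and 1.42. A missed threshold does not show equal levels. The intervals hold for the offset of 16 in the background correction, which compresses the differences of probes near the background. With an offset of 1 every interval again held 0, and the outermost bounds widened to -1.30, for Myc ILMN_1231123, and 0.84, for Ccnd3 ILMN_1246473.

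**Figure D1:**
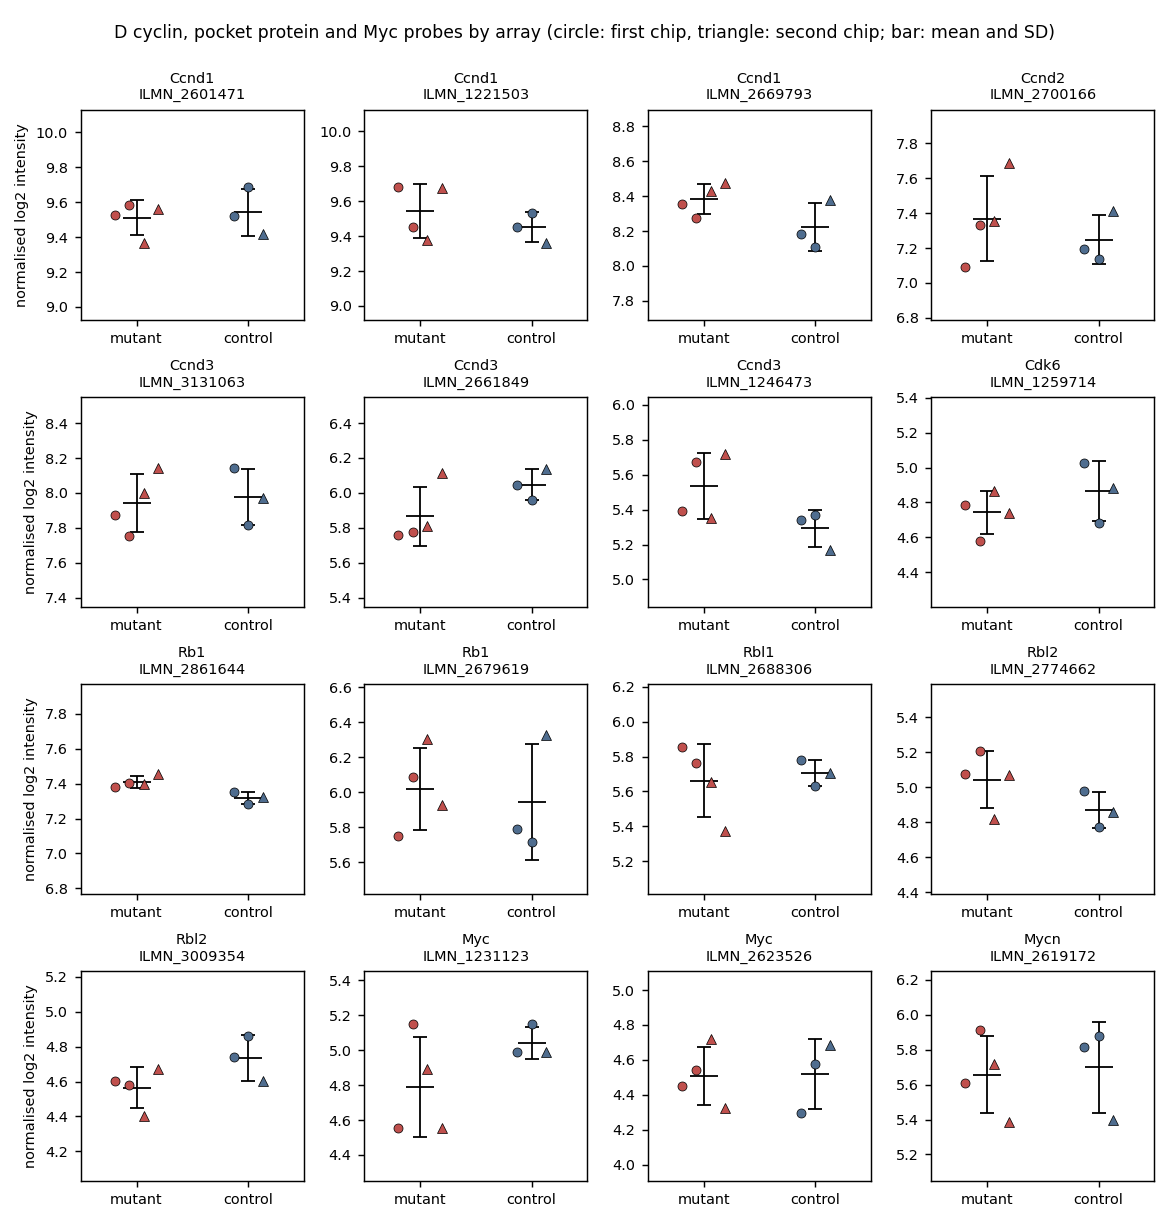
Normalised log2 intensity (y axis) of each of the 16 probes on every array, with the 4 mutant arrays left of the 3 control arrays in each panel. Circles are arrays of the first chip, triangles those of the second, and bars give the mean and SD. The groups overlap in 15 panels, and the Rb1 probe ILMN_2861644 is the exception.

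Ccnd1 encodes cyclin D1, the D-type cyclin most closely tied to growth factor and adhesion signals in epithelia. Its 3 probes gave small differences, of either sign. Probe ILMN_1221503 measured 9.68, 9.45, 9.38 and 9.67 in mutant replicates 1 to 4, against 9.45, 9.54 and 9.36 in control replicates 1 to 3. Mutant replicates 1 and 4 lay above all control arrays, while mutant replicates 2 and 3 lay among them. The difference was 0.11 on the log2 scale (SE 0.12, 95% interval -0.14 to 0.35, limma adjusted p = 0.850).

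Probe ILMN_2669793 of Ccnd1 measured 8.36, 8.27, 8.43 and 8.48 in mutant replicates 1 to 4, against 8.19, 8.11 and 8.38 in control replicates 1 to 3. Control replicate 3 lay among the mutant arrays, and both other control arrays lay below them. The difference was 0.13 on the log2 scale (SE 0.11, 95% interval -0.093 to 0.36, limma adjusted p = 0.788). Chip 1 gave 0.17 and chip 2 gave 0.076.

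The remaining Ccnd1 probe, ILMN_2601471, measured 9.51 ± 0.099 in mutant arrays (SD, n = 4) and 9.54 ± 0.14 in control arrays (SD, n = 3), a difference of -0.0093 (SE 0.11). Its sign turned to 0.11 under median scaling, so no direction can be given for it. Before normalization the groups overlapped for ILMN_2601471 and ILMN_2669793. The deposited intensities of Ccnd1 still leaned higher in the mutant arrays. For ILMN_1221503 they were 900.7, 836.1, 791.6 and 872.2 in mutant replicates 1 to 4, against 670.4, 738.5 and 731.6 in control replicates 1 to 3. Those groups did not overlap, whereas the quantile-normalised ones did. In deposited intensities all mutant arrays lay above all control arrays for 3 of the 16 probes, this one, Ccnd3 ILMN_1246473 and Rbl2 ILMN_2774662, and for 11.7% of all tested probes. With median scaling in place of quantile normalization the difference of this probe was 0.23 (limma adjusted p = 0.456), and that of ILMN_2669793 was 0.27 (limma adjusted p = 0.373). Median scaling also moved the median difference over all tested probes to 0.068.

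Ccnd2 encodes cyclin D2, and its probe ILMN_2700166 was detected on all arrays. It measured 7.09, 7.33, 7.35 and 7.69 in mutant replicates 1 to 4, against 7.20, 7.14 and 7.41 in control replicates 1 to 3. The mutant arrays included both the highest and the lowest of the 7 values. The difference was 0.071 on the log2 scale (SE 0.12, 95% interval -0.18 to 0.32, limma adjusted p = 0.905). It was 0.011 without mutant replicate 4 and 0.14 without mutant replicate 1.

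Ccnd3 encodes cyclin D3, and its 3 probes differed in sign. Probe ILMN_1246473 had the smallest unadjusted p of all 16 probes, 0.0516 by limma. It measured 5.39, 5.67, 5.35 and 5.72 in mutant replicates 1 to 4, against 5.34, 5.37 and 5.17 in control replicates 1 to 3. Mutant replicate 3 lay among the control arrays, and the other 3 mutant arrays lay above them all. The difference was 0.25 on the log2 scale (SE 0.12, 95% interval -0.0019 to 0.51, limma adjusted p = 0.622). The authors' deposited table gives this probe a p-value of 0.0228 and a q-value of 0.293, the smallest p and q it holds for these genes.

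Probe ILMN_2661849 of Ccnd3 measured 5.76, 5.77, 5.81 and 6.12 in mutant replicates 1 to 4, against 6.05, 5.96 and 6.14 in control replicates 1 to 3. Here 3 mutant arrays lay below all control arrays, and mutant replicate 4 lay among them. The difference was -0.21 on the log2 scale (SE 0.11, 95% interval -0.45 to 0.025, limma adjusted p = 0.653). The remaining Ccnd3 probe, ILMN_3131063, measured 7.94 ± 0.17 in mutant arrays (SD, n = 4) and 7.98 ± 0.16 in control arrays (SD, n = 3), a difference of -0.060 (SE 0.12) whose sign turned under median scaling.

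Cdk6, the kinase subunit that D cyclins activate, was read by ILMN_1259714 at 4.79, 4.58, 4.87 and 4.74 in mutant replicates 1 to 4, against 5.03, 4.68 and 4.88 in control replicates 1 to 3. The groups overlapped, and the difference was -0.14 on the log2 scale (SE 0.12, 95% interval -0.38 to 0.11, limma adjusted p = 0.807). With single arrays left out the difference ran from -0.21, without control replicate 2, to -0.041, without control replicate 1, and under other settings from -0.29 to -0.032. The probe was close to the limit of detection. Its deposited intensities of 86.4 to 94.0 in mutant and 83.2 to 92.8 in control arrays stood against lowest detected intensities of 81.0 to 83.0 and 79.1 to 82.9 on the arrays of each group.

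Rb1 encodes the retinoblastoma protein, the pocket protein that binds activating E2F factors. Probe ILMN_2861644 measured 7.38, 7.40, 7.40 and 7.46 in mutant replicates 1 to 4, against 7.35, 7.28 and 7.32 in control replicates 1 to 3. All mutant arrays lay above all control arrays, which held for 1 of the 16 probes and for 3.28% of all tested probes. None of the 16 had all mutant arrays below all control arrays, against 3.27%, so 1 of 16 did not overlap in either direction, against 6.55%. The gap between the groups was small, with a difference of 0.089 on the log2 scale (SE 0.11, 95% interval -0.13 to 0.31, limma adjusted p = 0.866). Median scaling gave 0.22 (limma adjusted p = 0.467). The other Rb1 probe, ILMN_2679619, measured 6.02 ± 0.24 in mutant arrays (SD, n = 4) and 5.94 ± 0.33 in control arrays (SD, n = 3), a difference of 0.017 (SE 0.13). Chip 1 gave a difference of 0.17 and chip 2 one of -0.21.

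Rbl1 encodes p107, a pocket protein of cycling cells whose gene is itself an E2F target and whose window shown above holds an E2F octamer. Probe ILMN_2688306 measured 5.86, 5.76, 5.66 and 5.37 in mutant replicates 1 to 4, against 5.78, 5.63 and 5.70 in control replicates 1 to 3. Mutant replicate 4 was the lowest array and mutant replicate 1 the highest. The difference was -0.013 on the log2 scale (SE 0.12, 95% interval -0.26 to 0.23, limma adjusted p = 0.990), and its sign turned under median scaling.

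Rbl2 encodes p130, the pocket protein of quiescent cells, and its 2 probes differed in sign. Probe ILMN_2774662 measured 5.08, 5.21, 4.82 and 5.07 in mutant replicates 1 to 4, against 4.98, 4.77 and 4.86 in control replicates 1 to 3. Mutant replicate 3 lay among the control arrays and the other mutant arrays above them. The difference was 0.20 on the log2 scale (SE 0.12, 95% interval -0.048 to 0.44, limma adjusted p = 0.692).

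Probe ILMN_3009354 of Rbl2 measured 4.60, 4.58, 4.40 and 4.67 in mutant replicates 1 to 4, against 4.74, 4.86 and 4.60 in control replicates 1 to 3. The mutant arrays lay in the lower part of the range, with overlap. The difference was -0.15 on the log2 scale (SE 0.11, 95% interval -0.39 to 0.086, limma adjusted p = 0.771).

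Myc, the founding member of its family, was read by 2 probes. ILMN_1231123 measured 4.56, 5.15, 4.90 and 4.56 in mutant replicates 1 to 4, against 4.99, 5.15 and 4.99 in control replicates 1 to 3. Mutant replicates 1, 3 and 4 lay below all control arrays, while mutant replicate 2 was level with the highest of them. The difference was -0.24 on the log2 scale (SE 0.14, 95% interval -0.52 to 0.051, limma adjusted p = 0.683). Chip 1 gave -0.22 and chip 2 gave -0.26. It lay between -0.39 and -0.092 with single arrays left out, the smaller size without mutant replicate 1 and the larger without mutant replicate 2.

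The second Myc probe, ILMN_2623526, was detected on 3 of the 4 mutant arrays and 2 of the 3 control arrays. It measured 4.51 ± 0.17 in mutant arrays (SD, n = 4) and 4.52 ± 0.20 in control arrays (SD, n = 3), a difference of -0.029 (SE 0.12, 95% interval -0.29 to 0.23). Deposited intensities of Myc ran from 81.8 to 99.3 in mutant and 78.1 to 95.1 in control arrays over both probes, close to the lowest detected intensities. With an offset of 1 in place of 16, which compresses differences less, the difference of ILMN_1231123 was -0.53 (SE 0.33, limma adjusted p = 0.777).

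Mycn encodes N-Myc, the Myc relative best known from embryonic tissues, and its window above holds E2F octamers. Probe ILMN_2619172 measured 5.61, 5.91, 5.72 and 5.38 in mutant replicates 1 to 4, against 5.82, 5.88 and 5.40 in control replicates 1 to 3. The groups covered nearly the same range. The difference was 0.0099 on the log2 scale (SE 0.12, 95% interval -0.25 to 0.27, limma adjusted p = 0.992).

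**Figure D2:**
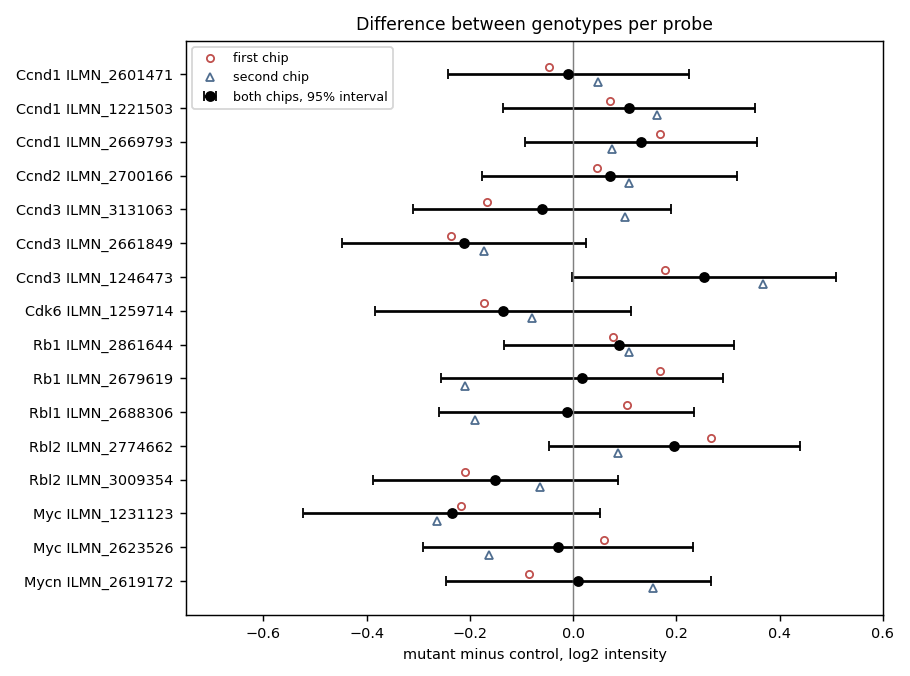
Difference between mutant and control arrays (x axis, log2 intensity) for each of the 16 probes (y axis). Black points with bars are estimates over both chips with 95% intervals, open circles the difference on the first chip and open triangles that on the second. Every interval crosses 0, and the points lie between -0.24 and 0.25.

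The chips were compared by a limma fit with an interaction of genotype and chip. None of the 16 probes had a difference that depended on the chip at an adjusted p under 0.05 (the smallest was 0.999), and 0 had an unadjusted p under 0.05, while 493 of all tested probes (3.36%) did and 0 (0%) passed after adjustment. The signs on the chips were opposite for 6 probes. They were ILMN_2601471 of Ccnd1, ILMN_3131063 of Ccnd3, ILMN_2679619 of Rb1, ILMN_2623526 of Myc and the probes of Rbl1 and Mycn.

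After probes of the same gene were seen to differ in sign, the gap between 2 probes on the same array was compared between the genotypes. There were 9 such pairs over Ccnd1, Ccnd3, Rb1, Rbl2 and Myc, each tested with a two-sided exact permutation test over the 35 splits of the arrays, which can give no p below 0.0286. Probe ILMN_2661849 of Ccnd3 minus ILMN_1246473 was 0.37, 0.10, 0.46 and 0.40 in mutant replicates 1 to 4, against 0.70, 0.59 and 0.97 in control replicates 1 to 3. All mutant arrays lay below all control arrays (mutant minus control -0.42, exact permutation p = 0.0286, adjusted p = 0.129 over 9 pairs). Both probes carry the same transcript identifier in the authors' deposited table. Chip 1 gave a difference in gap of -0.42 and chip 2 one of -0.54.

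For Rbl2, ILMN_2774662 minus ILMN_3009354 was 0.47, 0.63, 0.42 and 0.40 in mutant replicates 1 to 4, against 0.24, -0.093 and 0.26 in control replicates 1 to 3. All mutant arrays lay above all control arrays (mutant minus control 0.35, exact permutation p = 0.0286, adjusted p = 0.129 over 9 pairs). Chip 1 gave a difference in gap of 0.48 and chip 2 one of 0.15. The authors' deposited table gives a transcript identifier for ILMN_3009354 and none for ILMN_2774662. Deposited intensities were 84.5 to 101.1 for ILMN_2774662 and 83.7 to 88.6 for ILMN_3009354. Both are near the lowest detected intensities of 79.1 to 83.0. On mutant replicate 3, ILMN_2774662 was read by 16 beads. Both pairs stand at the smallest p these splits allow, and neither passed the adjustment. At that p a pair could pass over 9 pairs only if most of the pairs stood there too, so not passing decides nothing. Opposite signs in these same values prompted the comparison, so the gaps are not separate evidence of a difference. The share of non-overlapping gaps over all genes with several probes was not computed. Permuting within chips, with the chip as a term, leaves 18 splits and a smallest p of 0.0556. Both pairs had that exact permutation p (adjusted p = 0.25 over 9 pairs), with differences in gap of -0.47 for Ccnd3 and 0.35 for Rbl2. The positions of the probes on the transcripts were not used here. The size of the gaps moved with the offset. The differences in gap were -0.19 for Ccnd3 and 0.11 for Rbl2 with no background correction, and -0.61 and 0.76 with an offset of 1.

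**Figure D3:**
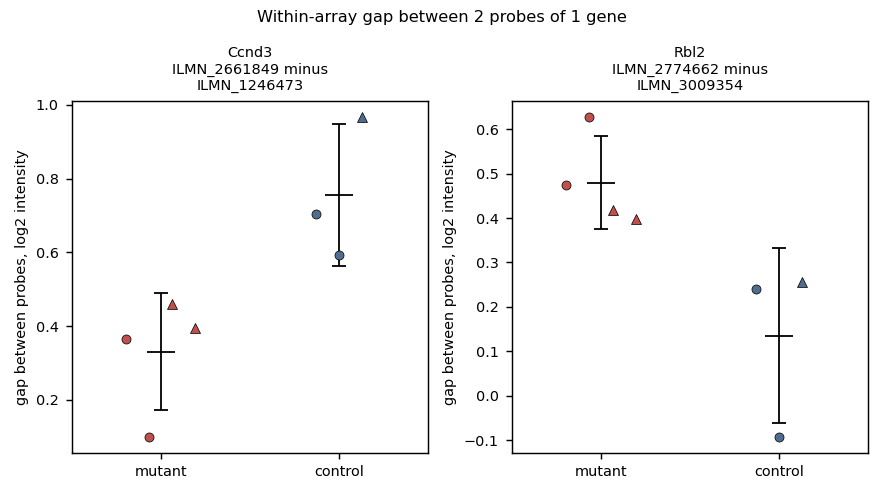
Gap between 2 probes of the same gene on the same array (y axis, log2 intensity), for Ccnd3 on the left and Rbl2 on the right, with mutant arrays left of control arrays in each panel. Circles are the first chip, triangles the second, bars the mean and SD. In both panels the groups do not overlap, with mutant means of 0.33 and 0.48 and control means of 0.75 and 0.13.

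Genes on either side of the D cyclins were taken as lists, 1 probe per gene, and 0 of their members passed the adjusted threshold in either direction, against 0.0614% of all tested probes. Cdk inhibitors had 6 tested members with a median of -0.035. Of these, 2 were higher at an unadjusted p under 0.05 (4.32% of all tested probes were). They were Cdkn1a, encoding p21, and Cdkn2b, encoding the Cdk4 and Cdk6 inhibitor p15. Cdkn2b measured 5.53 ± 0.086 in mutant arrays (SD, n = 4) and 5.03 ± 0.28 in control arrays (SD, n = 3), a difference of 0.54 (SE 0.12, limma adjusted p = 0.167). Cdkn1a had a difference of 0.52 (SE 0.11, limma adjusted p = 0.163), and its other probes 0.51 and 0.030. For Cdkn2b and the Cdkn1a probe at 0.52 all mutant arrays lay above all control arrays, as for 3.28% of all tested probes. Cdkn1c, encoding p57, differed by -0.14 (SE 0.12, limma adjusted p = 0.815). Cdkn2a was detected on 0 arrays.

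The partners that act at the G1 to S transition, namely cyclin E, Cdk2, Cdc25a and the E2F and DP factors, had 12 tested members with a median of -0.042, 4 positive and 8 negative. None had an unadjusted p under 0.05. Tfdp2, a DP partner of E2F factors, differed by -0.20 (SE 0.12, limma adjusted p = 0.697), while another probe of it differed by 0.25. Cdk2, the kinase of cyclins E and A, differed by -0.18 (SE 0.12, limma adjusted p = 0.721), and its other 3 probes lay between -0.14 and 0.059. E2f2, an activating E2F factor, differed by 0.19 (SE 0.13, limma adjusted p = 0.725).

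The E2F target genes of S phase had 19 tested members with a median of -0.016, 7 positive and 12 negative, and all lay between -0.15 and 0.21. None had an unadjusted p under 0.05. Mcm7, a subunit of the replicative helicase, differed by 0.21 (SE 0.15), Chaf1a, a histone chaperone subunit, by -0.15 (SE 0.11), and Rrm2, a ribonucleotide reductase subunit, by -0.15 (SE 0.12). The MuvB complex and its partners, which pair with p107 and p130 in the DREAM complex or with B-Myb and FoxM1 in dividing cells, had 5 tested members with a median of -0.059. In that list Lin52 differed by -0.19 (SE 0.12, limma adjusted p = 0.701), with all mutant arrays below all control arrays, as for 3.27% of all tested probes. Lin37 differed by 0.21 (SE 0.13), was detected on 6 arrays, and gave 0.42 on chip 1 and -0.11 on chip 2. Mybl2 differed by -0.11 (SE 0.11), and other probes of Mybl2 by -0.076 and 0.16.

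The Max network, the partners and antagonists of Myc, had 10 tested members with a median of -0.041. One, Mnt, which competes with Myc for Max, was lower at an unadjusted p under 0.05 (3.69% of all tested probes were), at -0.31 (SE 0.15, limma adjusted p = 0.619). Mnt was detected on 5 of the 7 arrays, with differences of -0.15 on chip 1 and -0.55 on chip 2. Zbtb17, encoding the Myc partner Miz-1, differed by 0.18 (SE 0.12), and Mycl, listed on the array as Mycl1, by -0.13 (SE 0.13). Myc target genes had 22 tested members with a median of 0.051, 15 positive and 7 negative. Of these, 4 were higher at an unadjusted p under 0.05 and 0 lower, against 4.32% and 3.69% of all tested probes. Odc1, the first enzyme of polyamine synthesis, differed by 0.26 (SE 0.11, limma adjusted p = 0.583), Eif4e, the cap-binding translation factor, by 0.30 (SE 0.13, limma adjusted p = 0.583) and Dkc1, the pseudouridine synthase dyskerin, by 0.26 (SE 0.12, limma adjusted p = 0.590). The fourth was Shmt2, an enzyme of mitochondrial folate metabolism, named after its value was seen, at 0.26 (SE 0.12, limma adjusted p = 0.615). The difference of Eif4e was 0.49 on chip 1 and 0.0023 on chip 2, and Dkc1 was detected on 5 of the 7 arrays.

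Genes of cyclin D and Myc turnover had 10 tested members, all between -0.12 and 0.091, with a median of -0.024 and none at an unadjusted p under 0.05. Fbxo31, a ubiquitin ligase subunit for cyclin D1, differed by -0.11 (SE 0.11). Ambra1, the substrate receptor for all D cyclins, differed by -0.12 (SE 0.13), and Skp2, a ligase subunit that acts on Myc and p27, by -0.12 (SE 0.14). Other probes of Ambra1 differed by 0.22 and -0.21.

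**Figure D4:**
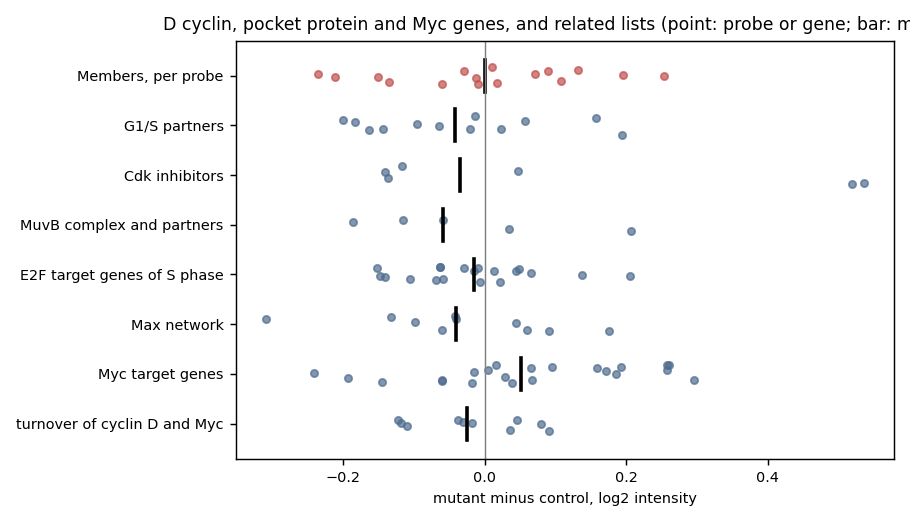
Difference between mutant and control arrays (x axis, log2 intensity) for the 16 probes of the D cyclin, pocket protein and Myc genes in the top row and for 1 probe per gene of 7 related lists below. Vertical bars are medians, which lie between -0.059 and 0.051. Cdkn1a and Cdkn2b are the points to the far right, at 0.52 and 0.54.

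No marker of another cell type passed the adjusted threshold. The mean levels of Schwann cell markers did not overlap between the groups, and those of several other marker lists differed in part. Their part in the values above was not tested. In bulk tissue a change in the number of cells of a type and a change in RNA per cell cannot be told apart. The mean level of 3 ameloblast markers ran from 6.79 to 8.24 over mutant arrays and from 6.42 to 6.80 over control arrays, with 3 of 3 positive. All 3 were higher at an unadjusted limma p under 0.05, against 4.32% of all tested probes. Ambn differed by 1.12, Enam by 0.90 and Amelx by 0.46 (limma adjusted p = 0.160, 0.134 and 0.486). Mmp20 and Klk4 were detected on 0 arrays. The mean of 11 mesenchyme, odontoblast and osteoblast markers ran from 5.42 to 5.94 over mutant and from 5.38 to 5.57 over control arrays, with 10 of 11 positive. Of the 11, 3 were higher and 0 lower at an unadjusted limma p under 0.05. Col1a1 differed by 1.26 (limma adjusted p = 0.152), and Col1a2 by 0.0059. The mean of 8 macrophage and leukocyte markers ran from 4.95 to 5.30 over mutant and from 4.80 to 5.10 over control arrays, with 7 of 8 positive. None of the 8 had an unadjusted limma p under 0.05. Schwann cell markers ran from 5.06 to 5.46 over mutant and from 4.96 to 5.01 over control arrays, with 3 of 3 positive. Of the 3, 2 were higher and 0 lower at an unadjusted limma p under 0.05. Of 6 endothelial markers only Cldn5 could be tested, at 0.089, and of 3 muscle markers none could. Erythroid markers, 2 tested, ran from 4.30 to 4.82 over mutant and from 4.23 to 5.03 over control arrays, with 2 of 2 negative.

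For the probe of smallest unadjusted p in each role, the 3 probes of other genes with the most similar pattern were found by Pearson correlation over the 7 arrays, after each chip's mean was removed. The comparison ran over 14666 probes that share arrays and normalization, so high values are found for any probe. For Ccnd3 ILMN_1246473 they were Adrbk1 (now Grk2, r = 0.991), Gimap8 (r = 0.989) and Cobll1 (r = 0.989). For Rbl2 ILMN_2774662 they were Sf4 (now Sugp1, r = 0.983), Plxna2 (r = 0.982) and Surf6 (r = 0.981). For Myc ILMN_1231123 they were Lzts2 (r = 0.995), Trove2 (now Ro60, r = 0.993) and Rap2c (r = 0.992). None of these 9 probes passed the adjusted threshold between the genotypes.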

How the data were processed

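RNA from the labial cervical loop was purified with an RNeasy micro kit and labelled with biotin for Illumina arrays, per the labels' protocols. The deposited intensity of a probe is the mean over its beads, not normalised, per the file headers. A detection p-value and a bead count per probe were deposited beside it, and the bead counts were 16 to 55 for the probes described. The authors also deposited log2 values adjusted with ComBat for the array ID, per the name of the file, with a p-value, a q-value and a fold score that is a signed ratio of mean log2 values. The series matrix holds the same log2 values. The summarising software and the normalization before ComBat are not given in the sources used here.

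Intensities were corrected for background in R 4.3.3 with limma 3.58.1 (normal-exponential, with negative controls derived from detection p-values and an offset of 16), followed by quantile normalization and log2. Probes with a detection p under 0.05 on at least 3 of 7 arrays, 14666 of 25697, were fitted with lmFit and eBayes, with genotype and chip as terms (4 residual and 15.5 prior degrees of freedom). P-values are two-sided and Benjamini-Hochberg adjusted over all tested probes, with a threshold of 0.05. Means and SDs are of normalised values without the chip term. The number of arrays limits the precision. The fit was tested on simulated data, whose changes were all larger than any difference of the 16 probes. That test does not show that differences of their size would be called.

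The genes, lists and rule for naming were chosen with earlier results of these data known. All probes of the genes are named, with up to 3 genes per list by smallest p, the list gene being read by its brightest tested probe. Of 144 list entries, 133 matched the array's symbols as given, 5 through an older symbol of the RefSeq table, and 6 did not match. The comparison of probe gaps was added after the data were examined. Alternatives were the detection filter, background correction, offset, normalization, chip term, array weights, trend and robust options, series matrix values, threshold, replicate number, each chip alone and each array left out.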

Additional observations from a re-analysis of the deposited data

Results flagged for a closer look

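In 3 results 1 of the 4 mutant arrays stood apart from the others by Dixon's gap test, which flags about 1 in 20 groups by chance. The number of groups examined is not given here, so the 3 cannot be set against that rate. For Ccnd3 ILMN_2661849 the gap was 0.851 of the range, with mutant replicate 4 at 6.12 against 5.76 to 5.81 in the other mutant arrays. For Cdkn2b the gap was 0.840 of the range. For Tfdp2 it was 0.841 of the range.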

How the results depend on the processing

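None of the 16 probes was called under any of the 21 alternatives, and the lowest adjusted p of any was 0.177, for Ccnd1 ILMN_2669793 with neither background correction nor quantile normalization but median scaling, a setting chosen after seeing the data, as were the offset of 1 and the probe gaps. With single arrays left out the lowest was 0.570. Of 335 values for these probes, 303 kept their direction and side of the threshold and 32 changed sign, and 10 probes never changed sign. Ccnd1 ILMN_2601471 was 0.11 under median scaling with or without background correction and 0.048 within the second chip. Ccnd3 ILMN_3131063 was 0.062 under median scaling, 0.056 without background correction as well, and 0.10 within the second chip. Rbl1 was 0.075 and 0.037 under these scalings, 0.054 with the replicate block and 0.11 within the first chip. Myc ILMN_2623526 was 0.051 with the replicate block and 0.059 within the first chip. Mycn was -0.041 without the chip term, -0.014 on the deposited log2 values and -0.086 in chip 1 alone. Rb1 ILMN_2679619 was -0.21 within the second chip, and the Rb1 probe gap was -0.00093 with an offset of 1. With single arrays left out, the values that changed sign ran from -0.048 to 0.042 for Ccnd1 ILMN_2601471, from -0.17 to 0.048 for Ccnd3 ILMN_3131063, from -0.12 to 0.059 for Myc ILMN_2623526, from -0.086 to 0.11 for Mycn, from -0.10 to 0.17 for Rb1 ILMN_2679619 and from -0.080 to 0.11 for Rbl1. The gaps ran from -0.19 to 0.035 for Ccnd1 ILMN_1221503 minus ILMN_2669793 and from -0.17 to 0.12 for Rb1. The cause was not tested.

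Over all probes, 9 were called. The count was 0 without the detection filter (1914 at an unadjusted limma p under 0.05), 0 without background correction (1274), 0 with an offset of 50 (1282), 0 on the series matrix values (1845) and 0 with an offset of 1 (1065). It was 1 within the first chip and 1 with median scaling and no background correction, and 0 to 14 with single arrays left out. Same-numbered arrays had correlations of -0.019, 0.16 and 0.15 after each group's mean was removed. Mutant replicates 2 and 3 matched the control array of their own number best, and mutant replicate 1 matched control replicate 2 best. So few values, with the chip not removed, cannot decide whether the numbers pair the samples. The replicate block, which gives mutant replicate 4 no weight for lack of a partner, gave 9 calls over all probes and 0 among these genes. Small array numbers and signals near background limit what could be seen for Cdk6, Rbl2 and Myc.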
